A study of Rattus norvegicus with 35 samples.

Results

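The result described here is an interaction: the change in liver gene expression after hemorrhage and resuscitation (H/R) in rats with a ligated bile duct, minus the same change in control rats. For each gene it was computed as (CBDLpH - CBDLpS) - (CTROLH - CTROLS) on log2 signals, so a negative value means that the H/R change was lower in ligated than in control livers. All 13439 genes with a probe set of their own on the array were members, and 22 of the 35 arrays, from 4 of the 6 groups, entered the contrast. CTROLS (5 arrays) were control rats given a sham H/R procedure, and CTROLH (6 arrays) were control rats given H/R. CBDLpS (5 arrays) and CBDLpH (6 arrays) were rats whose common bile duct had been ligated 4 weeks earlier, with weekly vitamin K, and which then had the sham procedure or H/R. The remaining groups, CBDLSS (5 arrays) and CBDLSH (8 arrays), were ligated rats that also received simvastatin by gavage, 5 mg/kg daily, starting 3 days ahead of the experiment and ending 1 h before it. The labels used here give no strain, sex or age, do not say whether control rats had a sham ligation, and do not say whether untreated ligated rats received the drug's vehicle. They do not state beyond a title number that each array is a separate animal, so the p-values below measure the spread between these arrays.

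Blood loss followed by return of fluid exposes the liver to ischemia and reperfusion. A liver under that stress switches on heat shock chaperones, which refold damaged proteins, immediate early transcription factors, and cytokines and chemokines that draw leukocytes into the sinusoids. Long obstruction of the bile duct produces secondary biliary cirrhosis, with proliferating bile ductules, scar matrix and a liver that tolerates hypotension poorly. The comparison asks whether the cirrhotic liver answers the same insult with the same genes.

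The tissue label was checked against marker lists. The mean log2 level of 17 hepatocyte genes lay between 10.69 and 11.75 on all 22 arrays. The 18 cholangiocyte and ductular markers had a median difference of 3.80 between ligated and control sham livers, and the 27 stellate cell, myofibroblast and matrix markers one of 1.30. In whole tissue, fewer cells of a type and less RNA per cell cannot be told apart. Some array measures differed by arm. The BioD minus BioB spike-in difference lay between 3.11 and 3.29 on control arrays and between 3.45 and 3.79 on ligated arrays, with sham and H/R ranges overlapping in each arm. The brightest nonspecific control probe, used below as the level of background, averaged 4.50 in control sham, 4.59 in control H/R, 3.64 in ligated sham and 4.00 in ligated H/R arrays. The part of these measures in the results was not tested.

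In the interaction 1 of 13439 genes (0.00744%), the lectin gene Clec4m, had an adjusted p under 0.05 (limma with Benjamini-Hochberg adjustment). At an unadjusted p under 0.05 there were 734 genes (5.46%), of which 358 were positive (2.66%) and 376 negative (2.8%). The median over all genes was -0.008 and the median standard error 0.226, so the 95% interval of a typical gene reached 0.46 to either side. Taken separately, H/R changed 115 genes in control livers (0.856% of genes; 49 or 0.365% higher, 66 or 0.491% lower) and 18 in ligated livers (0.134%; 16 or 0.119% higher, 2 or 0.0149% lower). The arms shared 3 called genes, Hspb1, Hspe1 and Hsph1, all heat shock chaperones, which is 2.61% of the control list and 16.7% of the ligated list. Being called in one arm only does not show a difference between arms; the interaction is the test of that.

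The control and ligated effects come from different arrays, and across genes they correlated with a Pearson r of 0.343 and a Spearman rho of 0.303, over genes that are not independent of each other. Of the 115 genes called in control livers, 95 had the same sign in ligated livers, against 8110 of all 13439. Their median size was 0.79 in control livers, where they had been chosen, and 0.24 in ligated livers when signed by the control direction. Of the 18 genes called in ligated livers, all 18 had the same sign in control livers, with a median of 1.01 in the arm that chose them and 0.34 in the other. Each set was chosen in 1 arm, so these medians describe the sets and test nothing.

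**Figure D1:**
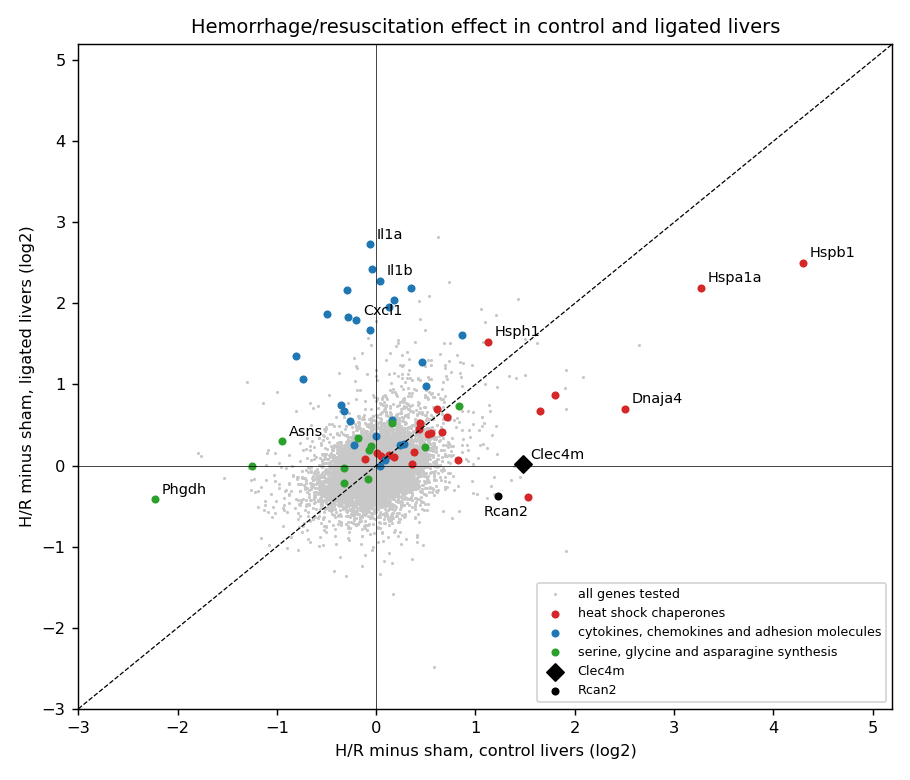
Each grey point is 1 of 13439 genes, with its log2 H/R effect in control livers on the x axis and in ligated livers on the y axis; the dashed line marks equal effects. Heat shock genes such as Hspb1 and Dnaja4 lie below the line, cytokines such as Il1a and Il1b lie high on the y axis near 0 on the x axis, and Clec4m (diamond) lies at 1.48 and 0.02. Rcan2 (black circle) also lies below the line.

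Clec4m encodes a C-type lectin; its human counterpart is a pathogen-binding receptor of liver sinusoidal endothelium. Its log2 signals in control sham arrays were 3.33, 3.71, 3.78, 4.02 and 4.05. After H/R in control livers the lowest was 4.84, the median 5.26 and the highest 5.70. Every control H/R array therefore lay above every control sham array. In ligated sham arrays the signals were 2.32, 2.36, 2.71, 3.00 and 3.20, and in ligated H/R arrays they ran from 2.33 through a median of 2.72 to 3.24. The ligated groups overlapped almost completely and both lay below both control groups. Over all genes, ligated and control arrays did not overlap in 32% in sham and 23.2% in H/R livers. H/R and sham arrays did not overlap in 2% of genes in control and 1.19% in ligated livers. These shares are the background for the separations given below.

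The Clec4m interaction was -1.46 ± 0.24 (SE; 95% interval -1.95 to -0.96; limma adjusted p = 0.013). Its H/R effect was 1.48 in control livers (adjusted p = 2.7e-06) and 0.02 in ligated livers (adjusted p = 0.99). The mean exceeded the brightest nonspecific probe only in the control H/R group, so the levels of the other 3 groups are bounds, the control change is given as at least 1.68-fold, no fold is given in ligated livers, and the interaction is a difference between log2 signals as read, not between measured folds. The call was lost in 6 of the 33 alternative settings. It was lost when the fit held only the 22 arrays (adjusted p = 0.13) and when the last digits of the title numbers, whose meaning is not stated, were a block (adjusted p = 0.16) or limited the ligated arrays to endings found in both ligated groups (adjusted p = 0.14). All control titles share an ending that no untreated ligated title has. Ligated sham and H/R titles hold different mixes of endings, so the block changes the estimate only through the ligated H/R effect. Among the 22 arrays, a level difference between control and ligated livers cannot be told apart from one between endings. The other losses came without control sham replicate 1 (0.055), ligated sham replicate 3 (0.052) and ligated sham replicate 4 (0.055). The genes whose signals followed Clec4m most closely over the 22 arrays were Purb, Syce1l and Uspl1, with Pearson r of 0.908, 0.904 and 0.895, a likeness that includes the difference between control and ligated livers.

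Behind Clec4m, the genes of smallest p with a more negative H/R change in ligated livers were led by Rcan2, a regulator of the phosphatase calcineurin. Its signals in control sham arrays were 5.02, 5.40, 5.58, 5.65 and 5.83. Control H/R arrays ran from 6.06 through 6.77 to 7.54. The ligated sham arrays were tightly grouped at 6.33, 6.44, 6.53, 6.59 and 6.63, and the ligated H/R arrays ran from 5.48 through 6.21 to 6.92. Control livers thus separated completely with H/R, while the ligated groups overlapped and started at a level within the range of control H/R arrays. The interaction was -1.61 ± 0.32 (adjusted p = 0.11), with effects of 1.23 in control (adjusted p = 0.0041) and -0.38 in ligated livers. A second Rcan2 probe set gave -1.18.

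Ccng1, which encodes cyclin G1 and is induced by p53, had an interaction of -0.80 ± 0.21 (adjusted p = 0.55). It rose by 1.07 in control livers (adjusted p = 7.2e-05), where sham arrays read 7.32, 7.58, 7.71, 7.72 and 7.91 and H/R arrays 8.20 to 9.04 with a median of 8.79. Ligated sham arrays read 7.86, 7.92, 7.99, 7.99 and 8.05, and ligated H/R arrays 7.87 to 8.41 with a median of 8.29. The ligated groups overlapped. Phlda3, another p53 target, had an interaction of -0.90 ± 0.30 (unadjusted p = 0.0057). Of the 12 measured p53 targets these were the 2 with an unadjusted p under 0.05, where 2.8% of all genes were negative. None was positive at that level, and the list median was -0.11.

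Id1, an inhibitor of differentiation induced by bone morphogenetic protein signals, differed in a different way. Control sham arrays read 4.55, 4.76, 4.77, 5.16 and 5.27, and control H/R arrays 4.81 to 5.41 with a median of 5.06. The ligated sham arrays read 6.74, 6.82, 6.94, 6.98 and 7.78, and ligated H/R arrays 5.63 to 6.88 with a median of 6.10. Both ligated groups lay above both control groups, and the ligated H/R values were mostly below the ligated sham values. The interaction was -1.09 ± 0.32 (adjusted p = 0.61), with an effect of -0.87 in ligated livers (adjusted p = 0.10) and 0.22 in controls. The ligated effect was -1.78 in the arrays whose titles end in 03 (2 H/R, 1 sham). It was -0.01 in those ending in 06 (1 H/R, 3 sham). The sham array ending in 03 was the one at 7.78, and these subsets are too small for a test. The other negative genes of smallest p were Tle3, a transcriptional corepressor (-0.95), Slc13a4, a sulfate transporter (-1.31), Tm4sf4, a tetraspanin-like membrane protein of liver and gut (-0.55), Calb2, the calcium binder calretinin (-0.62), and Slc2a3, a glucose transporter (-0.61). Calb2 and Slc2a3 were not above the brightest nonspecific probe in any of the 4 groups, Slc13a4 was not in either ligated group, and Tle3 was not in control sham livers, so these 4 values are differences of signals that lie partly at background.

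**Figure D2:**
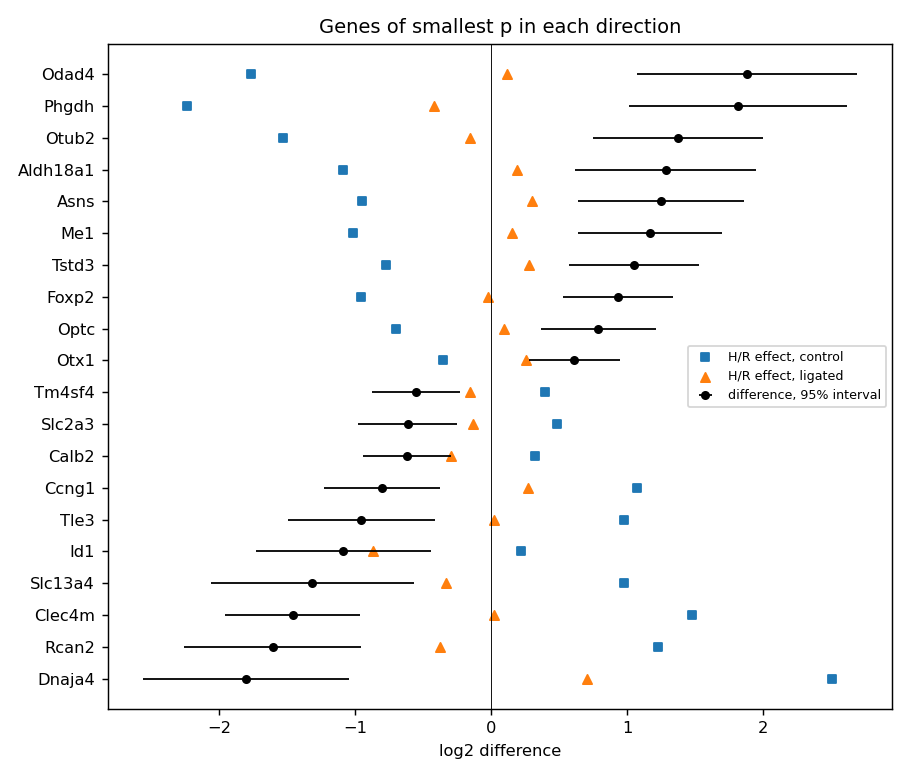
Log2 interaction with its 95% interval (black) for the 10 genes of smallest p in each direction, with the H/R effect in control livers (blue squares) and in ligated livers (orange triangles). The control effect is the farther of the pair from 0 in all of them except Id1. The values of Clec4m, Slc13a4, Tle3, Calb2, Slc2a3, Odad4, Aldh18a1, Foxp2, Optc and Otx1 rest on 1 or more group means under the nonspecific probe.

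In the positive direction no gene passed the adjusted threshold (0 of 13439, 0%). By p, Odad4, Foxp2, Phgdh, Me1, Otub2 and Tstd3 (interaction 1.05) came first, ahead of Asns and Aldh18a1. The genes of amino acid synthesis among those named are described first. Phgdh encodes the first enzyme of serine synthesis from glycolytic intermediates. Its control sham arrays read 6.69, 7.06, 7.73, 7.76 and 8.09, and its control H/R arrays 4.87 to 6.32 with a median of 5.03. In ligated livers the sham arrays read 7.06, 7.11, 7.49, 7.66 and 7.82, and the H/R arrays 6.21 to 7.65 with a median of 7.09. Every control H/R array lay below every control sham array, while the ligated groups overlapped. The interaction was 1.81 ± 0.40 (95% interval 1.01 to 2.62; adjusted p = 0.13), with effects of -2.23 in control livers (adjusted p = 9.9e-06) and -0.42 in ligated livers (adjusted p = 0.64).

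Asns, the enzyme that makes asparagine, had an interaction of 1.25 ± 0.30 (adjusted p = 0.30). Its control sham arrays read 7.35, 7.79, 8.10, 8.24 and 8.35 and its control H/R arrays 6.55 to 7.80 with a median of 7.02. Ligated sham arrays read 6.24, 6.25, 6.56, 6.57 and 7.33, and ligated H/R arrays 6.50 to 7.25 with a median of 6.89. Asns fell in control livers by 0.95 (adjusted p = 0.023), although the ranges of sham and H/R arrays overlapped, and had an effect of 0.30 in ligated livers. Psat1, the second enzyme of serine synthesis, fell in control livers by 1.25 (adjusted p = 0.0052) and had an effect of -0.01 in ligated livers, an interaction of 1.25 ± 0.34 (adjusted p = 0.56). Of the 12 measured genes of serine, glycine and asparagine synthesis and transport, 4 were positive at an unadjusted p under 0.05, the fourth being the amino acid transporter subunit Slc3a2 (0.52), and none was negative. The list median was 0.29, and over all genes 2.66% were positive at that level. Aldh18a1, which starts proline synthesis, belonged to no list and had an interaction of 1.28 ± 0.33 (adjusted p = 0.51) and an effect of 0.19 in ligated livers. Its control H/R mean lay under the brightest nonspecific probe, so its control fall (adjusted p = 0.015) is given as at least 1.71-fold, and its interaction rests on that group too.

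Me1, the cytosolic malic enzyme that supplies NADPH for lipid synthesis, read 9.04, 9.37, 9.63, 9.66 and 9.68 in control sham arrays and 7.88 to 8.93 with a median of 8.45 in control H/R arrays. Its ligated sham arrays read 6.95, 7.12, 7.42, 7.45 and 7.58 and its ligated H/R arrays 7.35 to 7.53 with a median of 7.46. Every ligated array lay below every control array, and within the ligated arm the groups overlapped. The interaction was 1.17 ± 0.26 (adjusted p = 0.13), with a fall of 1.02 in control livers (adjusted p = 0.0040) and an effect of 0.15 in ligated livers. A second Me1 probe set gave 0.73. Otub2, a deubiquitinating enzyme, had an interaction of 1.37 ± 0.31 (adjusted p = 0.13), with effects of -1.53 in control (adjusted p = 1e-04) and -0.16 in ligated livers. Its ligated H/R mean, 4.06, lay just above the brightest nonspecific probe, at 4.00 in that group. A larger fall in ligated livers would therefore have been read only as a bound. Odad4, which belongs to the docking complex of ciliary dynein arms, had an interaction of 1.88 ± 0.40 (adjusted p = 0.11). Its control H/R mean lay under the brightest nonspecific probe, so its control fall is given as at least 2.07-fold. Foxp2, a transcription factor, had an interaction of 0.94 ± 0.20 (adjusted p = 0.11), but none of its 4 group means exceeded the brightest nonspecific probe.

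**Figure D3:**
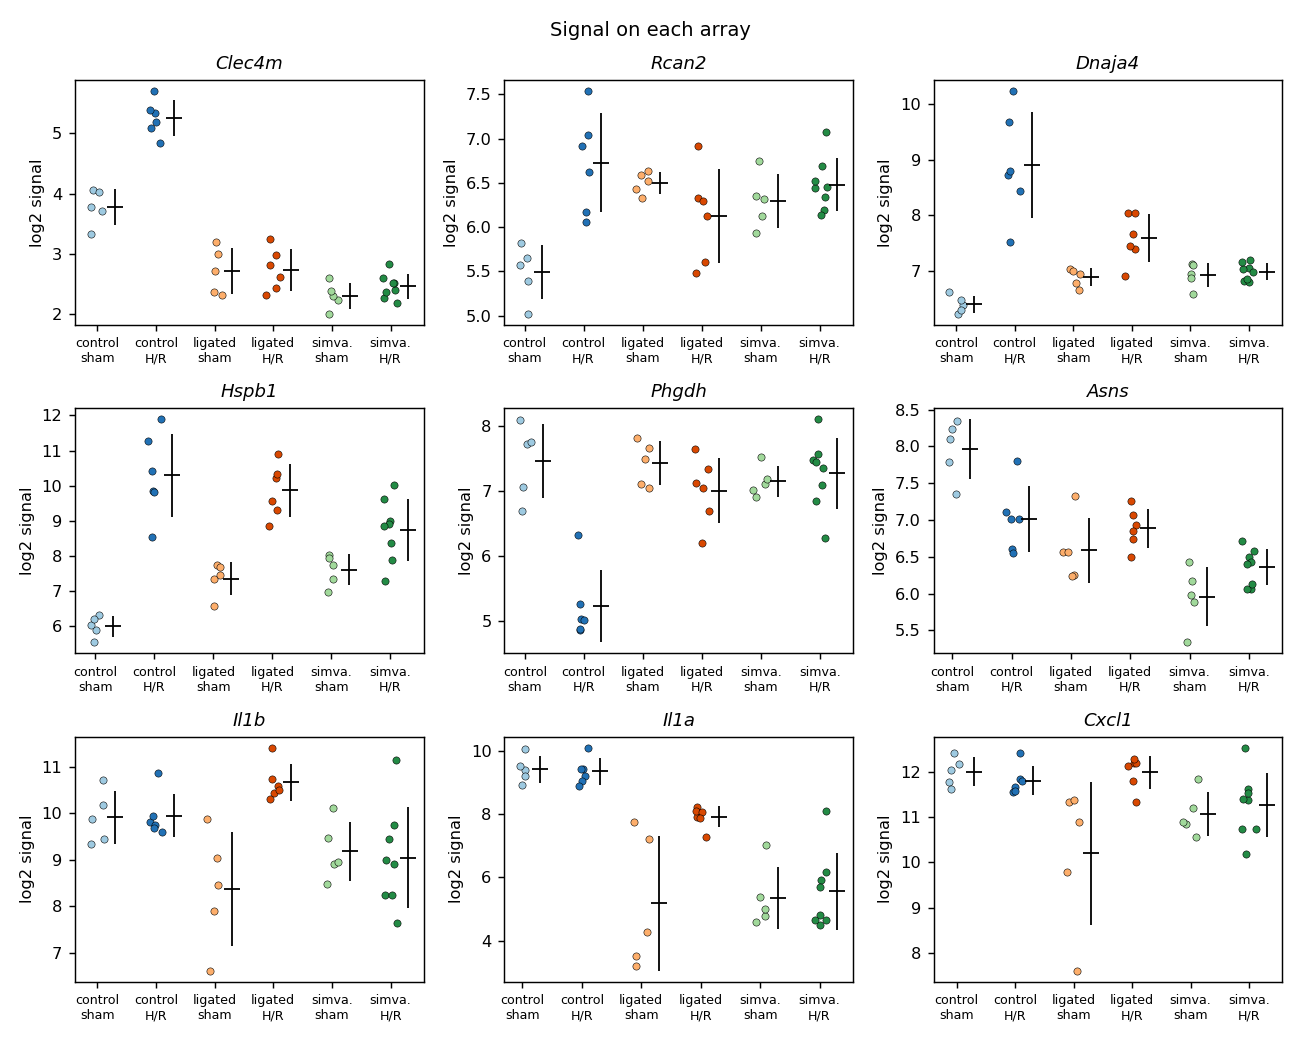
Log2 signal of 9 genes on every one of the 35 arrays (points), with the group mean and SD beside each column of points (black). Clec4m is highest and Phgdh lowest in control H/R, and Il1a, Il1b and Cxcl1 are spread widely in ligated sham arrays and close together in ligated H/R arrays.

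Heat shock chaperones bind unfolded proteins and keep them from aggregating. The list used here also held the heat shock transcription factors Hsf1 and Hsf2. Of 22 measured members, 9 rose in control livers and 3 in ligated livers, none fell, and 21 had a positive effect in each arm; over all genes 0.365% rose in control and 0.119% in ligated livers. The list's median effect was 0.59 in control and 0.40 in ligated livers, and the median interaction was -0.15. No member passed the adjusted threshold in the interaction; 5 were negative and none positive at an unadjusted p under 0.05, namely Dnaja4, Cryab, Hspb1, Hspa4l and Bag3, where 2.8% of all genes were negative. The list was written with earlier results of these data known.

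Hspb1, the small heat shock protein Hsp27, rose 19.6-fold in control livers and 5.67-fold in ligated livers. Control sham arrays read 5.55, 5.89, 6.04, 6.20 and 6.34 and control H/R arrays 8.55 to 11.89 with a median of 10.14. Ligated sham arrays read 6.57, 7.34, 7.47, 7.68 and 7.75 and ligated H/R arrays 8.84 to 10.91 with a median of 9.89. Sham and H/R arrays separated in both arms, ligated sham arrays lay above control sham arrays, and the H/R groups overlapped each other. The interaction was -1.79 ± 0.62 (95% interval -3.06 to -0.53; unadjusted p = 0.0069; adjusted p = 0.72).

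Dnaja4, a co-chaperone of the Hsp40 family, read 6.23, 6.30, 6.38, 6.47 and 6.62 in control sham arrays and 7.52 to 10.24 with a median of 8.77 in control H/R arrays. Its ligated sham arrays read 6.65, 6.78, 6.95, 6.99 and 7.04 and its ligated H/R arrays 6.91 to 8.05 with a median of 7.56. H/R and sham arrays separated in the control arm and overlapped in the ligated arm. Dnaja4 rose 5.67-fold in control livers (adjusted p = 3.2e-07), its ligated effect was 0.70 (adjusted p = 0.35), and the interaction was -1.80 ± 0.37 (adjusted p = 0.11). The other, dimmer Dnaja4 probe sets gave -2.25 (limma unadjusted p = 3.4e-07) and -1.44 (0.00093). The brightest, used here, had 2.7e-05 in the same fit of single probe sets, and Clec4m had 9.6e-07 in the gene fit. With the mean of the 3 the adjusted p was 0.034. That Dnaja4 was not called therefore depended on taking the brightest probe set. Over the 22 arrays its signal followed Bag3, Dnajb1 and Hspb1 with Pearson r of 0.913, 0.905 and 0.892. Bag3, a co-chaperone that links Hsp70 to autophagy, had effects of 1.65 in control and 0.67 in ligated livers.

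Cryab, the small heat shock protein alpha B-crystallin, had an estimate of -1.91. Its control sham mean, 4.34, lay under the brightest nonspecific probe, so its control H/R difference (adjusted p = 0.11) is given as at least 2.30-fold and its interaction rests on a group at background. Its means in ligated livers were 8.75 after sham and 8.37 after H/R. Hspa1a, the stress-inducible Hsp70, rose 9.64-fold in control livers, and its 4.58-fold difference in ligated livers had an adjusted p of 0.058; the interaction was -1.07 ± 0.71, and -0.703 without control H/R replicate 1. Hsph1, an Hsp110 nucleotide exchange factor for Hsp70, rose 2.18-fold in control and 2.88-fold in ligated livers and had an interaction of 0.41 ± 0.38 (95% interval -0.37 to 1.18), which was 0.243 without control H/R replicate 3. Hspe1, the mitochondrial chaperonin Hsp10, rose by 0.71 and 0.60, with an interaction of -0.11 ± 0.16 (95% interval -0.44 to 0.21) that lay between -0.21 and -0.04 with 1 array left out. The intervals bound how far the latter pair could differ between arms but do not show equal responses.

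The promoters of Hspb1 and Hsph1 are shown because these genes rose in both arms, Hspb1 with a negative and Hsph1 with a positive estimate of the interaction. Each sequence is the 300 bases from 250 before to 50 after the gene start in RefSeq's GRCr8 annotation, written 5' to 3' on the gene's strand. Hspb1 is at chr12:26432252-26432551, minus strand, and Hsph1 at chr12:10427118-10427417, plus strand. Capitals mark the heat shock element letters GAANNTTC, searched on both strands.
Hspb1: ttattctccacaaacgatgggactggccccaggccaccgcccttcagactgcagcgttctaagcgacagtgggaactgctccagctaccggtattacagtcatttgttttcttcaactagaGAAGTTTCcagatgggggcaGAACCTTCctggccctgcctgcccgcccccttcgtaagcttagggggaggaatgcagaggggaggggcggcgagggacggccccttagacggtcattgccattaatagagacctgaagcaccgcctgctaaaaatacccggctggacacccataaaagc
Hsph1: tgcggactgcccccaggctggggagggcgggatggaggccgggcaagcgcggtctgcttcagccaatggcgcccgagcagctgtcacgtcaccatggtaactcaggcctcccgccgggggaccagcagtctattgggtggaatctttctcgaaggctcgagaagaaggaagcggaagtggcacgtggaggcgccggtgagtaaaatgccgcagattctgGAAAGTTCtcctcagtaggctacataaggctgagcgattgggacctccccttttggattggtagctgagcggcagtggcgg
Hspb1 held 2 matches and Hsph1 held 1. Of the 22 measured genes of the heat shock list 20 had a promoter entry, and 12 of these held the motif, against 8.59% of all 33469 promoters of the same length. A longer form, in which another free pair of bases and GAA follow, was also searched on both strands; it overlaps the shorter form and was found in 6 of the 20 and in 0.798% of all promoters; the 6 include Hsph1 and Hspe1. Dnaja4 is not among the 12 genes with the shorter motif. A match is a string of letters and not a measured binding site.

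Cytokines, chemokines and adhesion molecules formed the list with the highest median interaction, 1.42, although no member passed the adjusted threshold. Of 26 measured members, 23 had a positive estimate, and 14 were positive and none negative at an unadjusted p under 0.05, where 2.66% of all genes were positive. The median H/R effect of the list was -0.02 in control and 1.32 in ligated livers. The starting levels differed, too: in sham livers the members' median was 1.13 lower in ligated than in control livers, and after H/R it was 0.19 higher. These sham and H/R comparisons use the same arrays as the interaction and are given side by side.

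On each array the mean log2 level of the 26 genes was taken. In control sham livers it ran from 6.88 to 8.14, in control H/R livers from 6.84 to 8.03, and in ligated H/R livers from 6.90 to 7.68. In ligated sham livers it ran from 5.21 to 6.69. The ligated sham arrays were thus below every array of the other 3 groups, which overlapped one another. Leukocyte markers were read on the same arrays. The summed level of 8 neutrophil markers, of which 4 exceeded the brightest nonspecific probe in at least 1 group, ran from 7.54 to 10.26 in control sham, 8.68 to 11.07 in control H/R, 8.81 to 9.27 in ligated sham and 8.83 to 12.43 in ligated H/R arrays (log2). That of 13 Kupffer cell and macrophage markers, all above that probe in at least 1 group, ran from 11.34 to 12.19, 11.94 to 12.29, 12.58 to 13.24 and 12.80 to 13.71 in the same order. Their part in the cytokine values was not tested.

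Il1b, the cytokine interleukin 1 beta, was the member that rose in ligated livers, by 2.28 (4.86-fold; adjusted p = 0.023). Its control sham arrays read 9.34, 9.44, 9.87, 10.18 and 10.72 and its control H/R arrays 9.60 to 10.86 with a median of 9.79. Ligated sham arrays read 6.62, 7.89, 8.47, 9.04 and 9.88, and ligated H/R arrays 10.31 to 11.40 with a median of 10.54. Ligated sham and H/R arrays separated, and all other pairs of these groups overlapped. The interaction was 2.25 ± 0.65 (95% interval 0.92 to 3.57; unadjusted p = 0.0015; adjusted p = 0.61), with an effect of 0.03 in control livers.

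Il1a, which encodes interleukin 1 alpha, had an interaction of 2.79 ± 0.87 (limma unadjusted p = 0.0030, adjusted p = 0.61). A second, dimmer Il1a probe set gave 1.49 ± 0.66. The brighter probe set read 8.93, 9.20, 9.38, 9.52 and 10.05 in control sham arrays. In control H/R arrays it read 8.89 to 10.10 with a median of 9.32. The ligated sham arrays fell into a low set at 3.19, 3.51 and 4.28 and a high pair at 7.21 and 7.74. The low set was replicates 1, 2 and 4, whose brightest nonspecific probes read 3.36, 3.25 and 3.97. The interaction thus rests in part on signals at or near background. The ligated H/R arrays ran from 7.29 to 8.24 with a median of 7.98. Ligated H/R arrays overlapped the high pair and lay below all control arrays. With the title number endings as a block the interaction was 1.77.

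Cxcl1 and Ccl2 are chemokines for neutrophils and for monocytes, in that order. Cxcl1 read 11.63, 11.78, 12.05, 12.17 and 12.42 in control sham arrays and 11.55 to 12.43 with a median of 11.73 in control H/R arrays. In ligated sham arrays it read 7.61, 9.79, 10.89, 11.33 and 11.38, and in ligated H/R arrays 11.35 to 12.29 with a median of 12.16. The ligated groups overlapped narrowly, and 5 of the 6 ligated H/R arrays lay within the range of the control arrays, the other, at 11.35, just under it. The Cxcl1 interaction was 1.99 ± 0.60 (unadjusted p = 0.0022) and the Ccl2 interaction 2.46 ± 0.77 (unadjusted p = 0.0031); both had an adjusted p of 0.61. The ligated effect in the arrays whose titles end in 06 (1 H/R, 3 sham) and in 03 (2 H/R, 1 sham) was 2.60 and 0.40 for Cxcl1, 3.64 and 0.62 for Ccl2, 3.27 and 1.43 for Il1b, and 3.28 and -0.07 for Il1a. These subsets are too small for a test.

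The promoters of Cxcl1 and of its neighbour Cxcl2 are shown because both carry the letters of a binding motif of NF-kB, the transcription factor that activates many cytokine genes. Capitals mark GGG and TTTCC with any pair of bases between them, searched on both strands. Cxcl1 is at chr14:17479272-17479571, minus strand, and Cxcl2 at chr14:17467206-17467505, minus strand (RefSeq, GRCr8).
Cxcl1: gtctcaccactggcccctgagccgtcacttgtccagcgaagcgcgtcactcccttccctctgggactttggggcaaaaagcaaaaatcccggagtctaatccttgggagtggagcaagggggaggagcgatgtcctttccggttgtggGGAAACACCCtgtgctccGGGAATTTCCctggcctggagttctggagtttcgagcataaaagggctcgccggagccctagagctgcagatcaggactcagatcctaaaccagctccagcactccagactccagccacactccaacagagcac
Cxcl2: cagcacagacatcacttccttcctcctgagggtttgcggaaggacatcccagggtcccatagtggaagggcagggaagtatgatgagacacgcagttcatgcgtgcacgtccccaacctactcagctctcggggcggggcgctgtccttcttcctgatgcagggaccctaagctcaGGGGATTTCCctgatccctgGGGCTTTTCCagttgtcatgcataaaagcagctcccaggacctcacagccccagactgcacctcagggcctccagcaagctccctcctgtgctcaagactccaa
Each held 2 matches. Of the 26 measured cytokine genes 16 had a promoter entry, and 5 of these held the motif (Ccl20, Cxcl1, Cxcl2, Il1rn and Il6), against 1.53% of all promoters.

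Genes of the unfolded protein and integrated stress responses, which expand the folding capacity of the endoplasmic reticulum, had a median interaction of 0.32. Of 23 measured members, 7 were positive and none negative at an unadjusted p under 0.05, where 2.66% of all genes were positive. None passed the adjusted threshold. Creld2, an endoplasmic reticulum stress protein, read 9.69, 10.08, 10.13, 10.17 and 10.69 in control sham arrays and 8.75 to 10.52 with a median of 9.83 in control H/R arrays. Its ligated sham arrays read 8.01, 8.30, 8.36, 8.40 and 8.74, and its ligated H/R arrays 8.62 to 10.04 with a median of 8.92. Groups overlapped within each arm, and ligated sham arrays lay below control sham arrays. The interaction was 1.05 ± 0.38 (unadjusted p = 0.0092). Hyou1, an endoplasmic reticulum chaperone, Manf, a secreted stress factor, and Hsp90b1, the chaperone Grp94, had interactions of 0.96, 0.65 and 0.44. Dnajb9, an endoplasmic reticulum co-chaperone, rose in ligated livers by 0.90 (adjusted p = 0.023), with 0.36 in controls.

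The Creld2 promoter is shown for its endoplasmic reticulum stress element, CCAAT and CCACG with 9 bases between them on either strand, in capitals (here on the reverse strand). It is at chr7:121789134-121789433, plus strand (RefSeq, GRCr8).
Creld2: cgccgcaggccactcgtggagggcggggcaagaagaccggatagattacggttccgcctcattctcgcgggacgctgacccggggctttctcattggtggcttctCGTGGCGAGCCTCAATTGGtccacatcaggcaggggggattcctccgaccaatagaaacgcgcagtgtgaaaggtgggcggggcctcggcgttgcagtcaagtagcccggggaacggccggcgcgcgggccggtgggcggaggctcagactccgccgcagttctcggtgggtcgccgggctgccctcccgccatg
Of the 23 measured members 20 had a promoter entry, and 7 of these held the element, Creld2 and Hsp90b1 among them, against 0.0657% of all promoters. For serine, glycine and asparagine synthesis, the amino acid response core TGATGNAA was found in 1 of 11 promoters (Slc1a4), against 3.98% of all.

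Immediate early genes, transcribed within minutes of a stimulus, had a median interaction of 0.24. Of 21 measured members 5 were positive and none negative at an unadjusted p under 0.05, where 2.66% of all genes were positive. Zfp36, whose protein destabilises cytokine messenger RNAs, read 8.77, 8.83, 9.32, 9.34 and 9.68 in control sham arrays, 8.13 to 9.05 in control H/R arrays, 6.89, 6.93, 7.68, 8.04 and 8.41 in ligated sham arrays and 7.85 to 9.20 in ligated H/R arrays. Sham and H/R arrays overlapped in both arms. Its interaction was 1.35 ± 0.42 (unadjusted p = 0.0031), and those of Ier3, Egr2 and Junb, a stress-induced survival gene and transcription factors of the Egr and AP-1 families, were 1.06, 0.87 and 0.79.

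Interferon-stimulated genes had the lowest median of the 30 lists, -0.29. Of 21 members 3 were negative and 1 positive at an unadjusted p under 0.05. The shares of all genes were 2.8% negative and 2.66% positive. The negative ones were Rsad2, an antiviral enzyme (-1.54), Usp18, which removes the ubiquitin-like protein Isg15 (-1.39), and Tap1, a peptide transporter of antigen presentation (-0.72). The Rsad2 value rested in part on control H/R replicate 4, at 9.31, and was -1.004 without it. The positive member was Irf1, a transcription factor that inflammatory cytokines also induce (1.43 ± 0.45). Cyp7a1, which catalyses the slowest step in making bile acids from cholesterol, had an interaction of -1.51 ± 0.56 (unadjusted p = 0.011). Its control sham arrays read 8.04 to 9.42, its control H/R arrays 7.82 to 9.92, its ligated sham arrays 10.80 to 11.46 and its ligated H/R arrays 8.69 to 10.81. The ligated sham arrays were the highest of the 4 groups, touching only the top of the ligated H/R arrays. Abcc3, a basolateral bile salt exporter, had -0.69, with both control means under the brightest nonspecific probe. Cyp7a1 and Abcc3 were the 2 negative members of 22 bile acid genes at an unadjusted p under 0.05. At that level 2.8% of all genes were negative. None of the bile acid genes was positive, and the list median was -0.03.

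No gene of any of the 30 lists (559 measured entries) passed the adjusted threshold. Beside the median of all genes, -0.008, the medians were 0.05 for 30 proteasome subunits, -0.03 for 26 respiratory chain genes, -0.08 for 17 hepatocyte genes, -0.25 for 18 cholangiocyte markers, 0.06 for 27 matrix and stellate cell markers and 0.42 for 8 neutrophil markers. At an unadjusted p under 0.05, 3 proteasome and 3 matrix genes were positive and 1 cholangiocyte marker was negative. The shares of all genes were 2.66% positive and 2.8% negative. No respiratory chain, hepatocyte, neutrophil or macrophage marker passed in either direction.

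**Figure D4:**
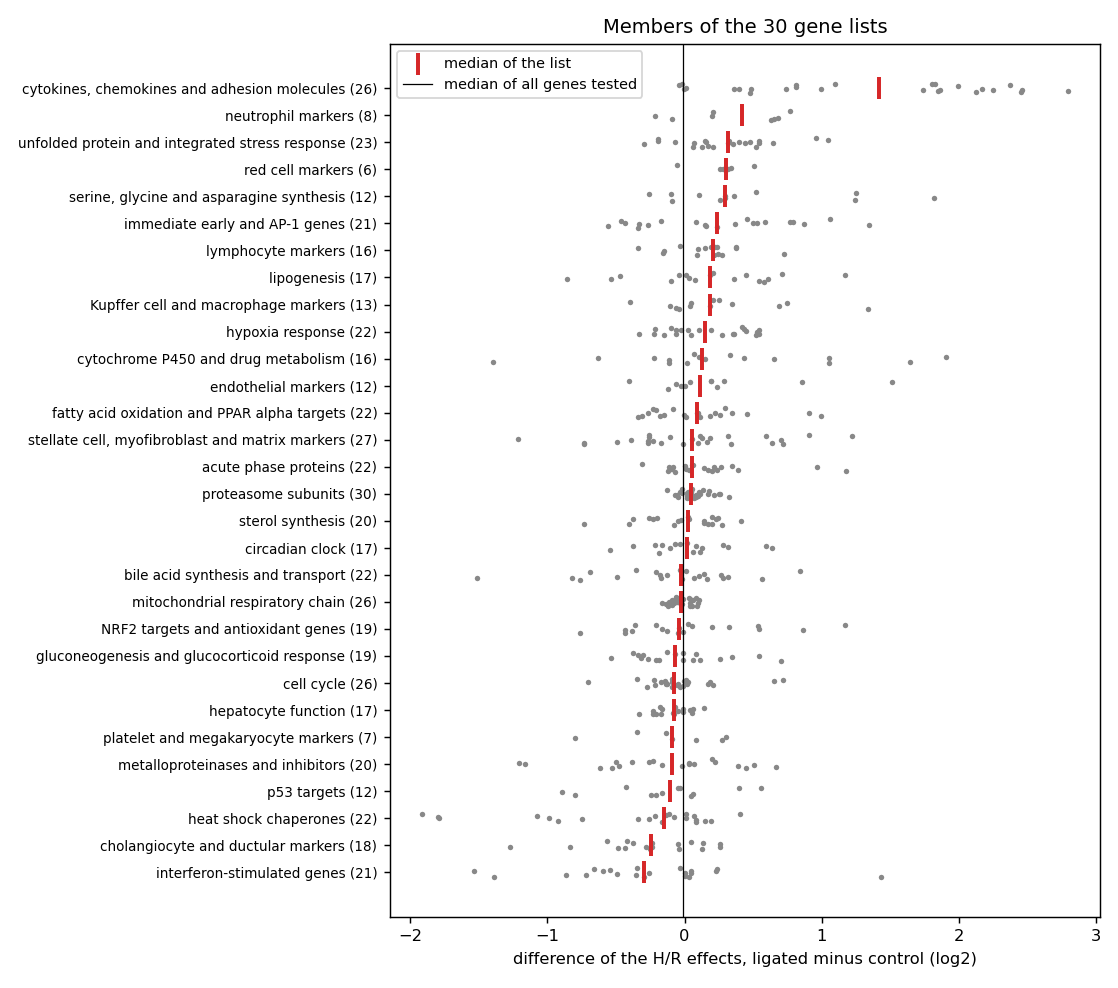
Interaction of each member (grey points) of the 30 gene lists, with the number of measured genes in brackets and the list median in red, ordered by median; the black line is the median of all genes tested. The cytokine list has its median at 1.42, and the interferon list, at -0.29, is the lowest.

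Genes called in ligated livers give the other side of the contrast. They were looked up after their values were seen. Il1b, Dnajb9 and the 3 chaperones are described above. Bcl2a1, an anti-apoptotic protein of leukocytes and activated endothelium, had effects of 1.37 in ligated and 0.26 in control livers. Penk, the precursor of enkephalins, had 2.02 in ligated livers, with both control means under the brightest nonspecific probe. Procr, the endothelial protein C receptor, had 1.24 and 0.70. The others that rose were C3h11orf91, at background in every group, and Dusp11, Gda, Nop58, Pcsk5, Pira2, RGD1305537 and Trmt61a. Celf5 and Scrn2 fell, with ligated effects of -1.37 and -0.65. Celf5 exceeded the brightest nonspecific probe only in ligated sham livers among the 4 groups.

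The simvastatin-treated ligated rats give a second ligated arm. In its sham group (5 arrays) replicate 1 stood apart: its 3' minus 5' signal was 4.295 for beta-actin and 2.204 for Gapdh, against 1.41 to 2.34 and 0 to 0.34 on the other 34 arrays, a measure that rises as RNA degrades. It enters the simvastatin values below except where it is said to be left out. Their H/R effect shares no array with the contrast above, and 0 of 13439 genes (0%) passed the adjusted threshold in it (limma; 725 or 5.39% at an unadjusted p under 0.05). Minus the control effect, which shares the control arrays with the contrast above, 7 genes passed (0.0521%): Otub2, Phgdh and Dock9 were positive, and Clec4m, Dnaja4, Hspb1 and Ccng1 negative. Without sham replicate 1, an alternative chosen after seeing the data, 4 passed (Clec4m, Dnaja4, Ccng1 and Phgdh), while Otub2, Hspb1 and Dock9 each had an adjusted p of 0.064; the simvastatin effect alone again had 0 (490 at an unadjusted p under 0.05). For Clec4m, above the nonspecific probe only in control H/R livers, the estimates were 1.48 in control, 0.02 in ligated and 0.15 in simvastatin-treated livers. Dnaja4 had 2.50, 0.70 and 0.06, Hspb1 4.30, 2.50 and 1.14, and Ccng1 1.07, 0.27 and 0.02. Phgdh had -2.23, -0.42 and 0.12. Dock9, a guanine nucleotide exchange factor, differed from these, with -0.36, -0.39 and 0.47, and an interaction of -0.03 without the drug. With the H/R effects of both ligated arms averaged, also chosen after seeing the data, 9 genes passed (0.067%), and 8 without that array.

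The lists differed in the same side by side view. Median H/R effects in control, ligated and simvastatin-treated livers were 0.59, 0.40 and 0.09 for the heat shock list. They were -0.02, 1.32 and 0.20 for cytokines, and -0.02, 0.20 and 0.16 for the unfolded protein list. Without simvastatin sham replicate 1 the third value of each was 0.08, 0.11 and 0.17. Whether the drug changed the H/R effect was not tested here.

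**Figure D5:**
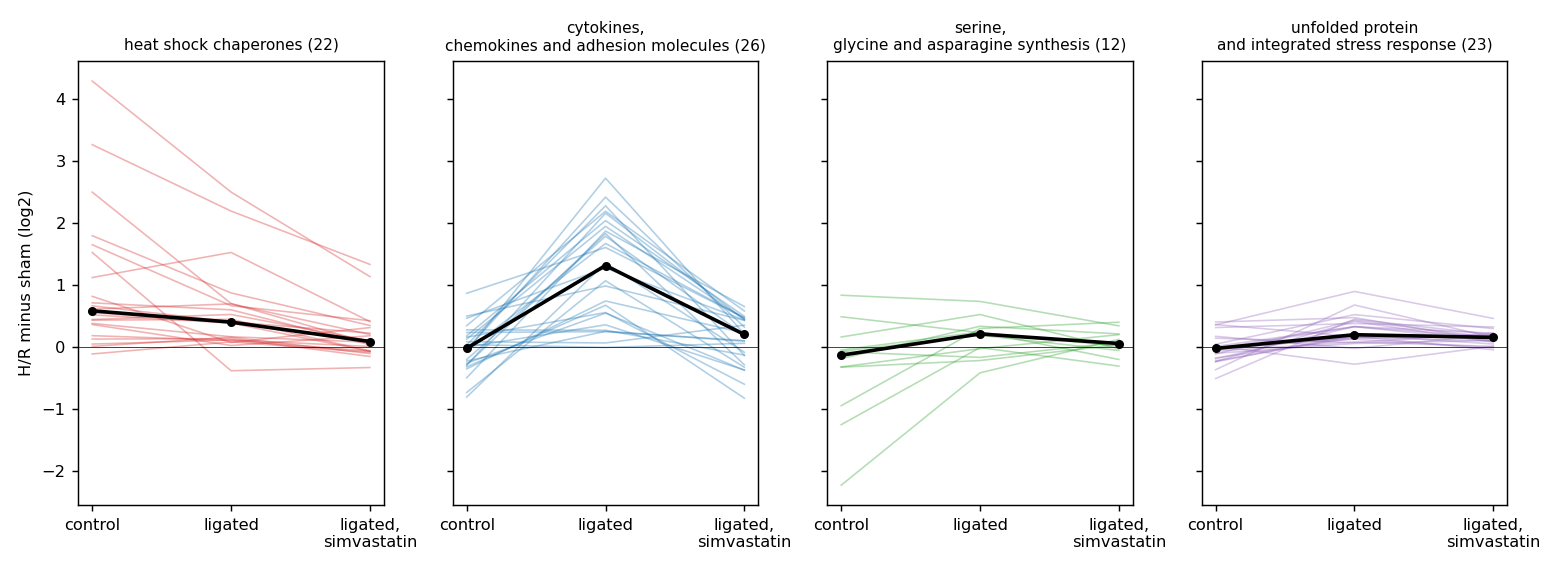
Log2 H/R effect of each member (thin lines) of 4 gene lists in control, ligated and simvastatin-treated ligated livers, with the median in black. Heat shock medians are 0.59, 0.40 and 0.09, and cytokine medians are -0.02, 1.32 and 0.20.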

How the data were processed

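Rat liver RNA from 35 samples was read on Affymetrix rat arrays, 1 array per sample. The values are log2 signals as the authors deposited them in the series' value table; how they were normalized is not stated in the labels, and array medians lay between 3.97 and 4.29. Of 31139 probe sets, 19069 had 1 gene symbol in GEO's platform annotation, 572 had several and 11498 were not listed there; the brightest single-symbol probe set stood for each of 13439 genes. limma 3.58.1 in R 4.3.3 fitted 1 mean per group to all 35 arrays (lmFit, eBayes), with Benjamini-Hochberg adjustment over all genes and an adjusted p threshold of 0.05. The fit was tested on simulated data. A group mean under that of the brightest nonspecific control probe was treated as a bound.

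Genes named are those past the threshold, the 10 of smallest p in each direction (uncharacterised loci left out), up to 4 per list with the smallest p in the difference, every heat shock gene, and for the 3 of smallest p in each direction the 3 genes of closest signal. Genes called in ligated livers are also named. The members and the 30 lists were chosen with earlier results of these data known. Promoters are RefSeq's (GRCr8); the 5 motifs were chosen after the values were seen, and the promoters printed after the motif search. The number of arrays limits the precision. Alternatives covered the arrays fitted, variance moderation, array weights, a filter on dim genes, normalization, centring, probe sets, title number endings and each of the 22 arrays of the contrast left out; of the simvastatin arrays, sham replicate 1 was left out.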

Additional observations from a re-analysis of the deposited data

Results flagged for a closer look

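The H/R effect of Clec4m differed between ligated and control livers by the test of the difference itself, at -1.46 on the log2 scale. Of the 4 groups it exceeded the brightest nonspecific probe only in control H/R, so this is a difference of signals with 3 groups at background, and the call was lost in 6 of 33 alternative settings. The other results here are single arrays that stood far from the rest of their group; of 392 groups of 5 or 6 arrays examined (98 genes in 4 groups), 18 did so, or 4.59%, and chance gives about 1 in 20. The set of genes examined was widened after a first count was seen: in the first 34 genes, which had an unadjusted p under 0.05 and either led a direction or came from the cytokine, heat shock, serine synthesis or unfolded protein lists, 12 of 136 groups had such an array, or 8.82%.

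In control sham livers the highest array stood apart for Calb2 (replicate 1, 3.24), Ccnd1 (replicate 2, 8.39) and Foxp2 (replicate 4, 3.83), and the lowest for Hspa1a (replicate 5, 6.54). Among control H/R arrays, replicate 6 was highest for Cxcl1 (12.43) and Il1b (10.86), replicate 3 for Odad4 (5.69), replicate 2 for Phgdh (6.32) and replicate 4 for Rsad2 (9.31), and replicate 5 was lowest for Tle3 (5.01). Among ligated sham arrays, replicate 3 was highest for Hyou1 (6.06), Id1 (7.78) and Trmt61a (5.92), replicate 5 was lowest for Cyp2c12 (10.9) and replicate 4 for Fkbp4 (6.42). In ligated H/R livers, replicate 3 was lowest for Aldh18a1 (4.80), replicate 6 for Il1a (7.29), and replicate 4 was highest for Creld2 (10.04).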

How the results depend on the processing

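The interaction called 1 gene, Clec4m, and H/R called 115 genes in control and 18 in ligated livers. The interaction called 0 genes with only the 22 arrays fitted (734 at an unadjusted p under 0.05), with genes above the 30th percentile, which leaves Clec4m out (532), with title number endings as a block, and with only the ligated arrays whose endings occur in both arms. It called 2 with quantile normalization (Clec4m and Foxp2) and 2 with the mean of all probe sets (Clec4m and Dnaja4). Averaging both ligated arms, an alternative chosen after seeing the data, gave 9. Control calls fell to 51 with the 22 arrays. Without simvastatin sham replicate 1, also chosen after seeing the data, the interaction called 1 gene. Control calls were then 145 and ligated calls 22. Ligated calls were 43 with array weights, 4 with the title block and 0 with the endings in both arms. Leaving out 1 array gave 0 to 5 genes in the interaction, 50 to 190 in control and 2 to 45 in ligated livers. The interaction called 0 without control sham replicate 1 or ligated sham replicates 3 or 4, 2 without ligated H/R replicate 3, 3 with control H/R replicate 2 left out, and 5 when control sham replicate 3 or control H/R replicate 3 was dropped. Control calls moved by over 1.5 times without sham replicates 4 or 5 (56 and 61) and H/R replicates 3, 4, 5 or 6 (190, 50, 173 and 51). Ligated calls did so without sham replicates 1 to 4 (6, 4, 45 and 7) and H/R replicates 1, 4 or 6 (2, 11 and 28).

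Of 98 genes followed, 11 changed sign under some setting; none of them was called in the interaction. With the title block the values were Dnaja1 -0.13, Dock9 0.002, Fkbp4 -0.26, Hsf2 -0.22 and Stip1 -0.23; with endings in both arms, Dnaja1 -0.07, Fkbp4 -0.21, Hsf2 -0.083 and Stip1 -0.15. Dock9 was 0.005 with centred arrays, and Hsf2 -0.021 with mean probe sets. Averaging both ligated arms gave Cacybp -0.13, Dnaja1 -0.16, Dock9 0.40, Fkbp4 -0.14, Hsph1 -0.15, Nop58 -0.007, Scrn2 0.073 and Stip1 -0.24. Leaving out 1 array gave -0.089 to 0.14 for Stip1, -0.10 to 0.14 for Fkbp4, -0.072 to 0.043 for Dock9, -0.024 to 0.24 for Dnaja1, -0.19 to 0.02 for Hspa8, -0.23 to 0.033 for Chordc1 and -0.01 to 0.19 for Hsf2. The causes were not tested. The cytokine median was positive in all 34 settings (0.94 to 1.77) and the heat shock median negative in all 34 (-0.28 to -0.08). No paired analysis was possible because the labels number no replicates and no whole title number recurs; the last digits that do recur, of unstated meaning, are the title block above. With 5 or 6 arrays a group, a typical interaction is known to within 0.46, and genes under the nonspecific level have no measured fold.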

Other observations

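Probe sets with several symbols or none in the annotation were tested apart from the named genes. Of 11979 such probe sets, 0 passed an adjusted p of 0.05 in the interaction (limma), 627 had an unadjusted p under 0.05 (5.23%), and the smallest adjusted p was 0.16.

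With the H/R effects of both ligated arms averaged, an alternative chosen after seeing the data, the 9 genes past the threshold were Asns (1.30), Foxp2 (0.92), Odad4 (1.69), Otub2 (1.42) and Phgdh (2.08) in the positive direction, and Ccng1 (-0.93), Clec4m (-1.39), Dnaja4 (-2.12) and Rcan2 (-1.32) in the negative. Without simvastatin sham replicate 1 all but Rcan2 passed. They share the control arrays with the interaction and are not independent of it. The cytokines Il1b, Il1a, Cxcl1 and Ccl2 had 1.04, 1.53, 1.19 and 1.60 in that average.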
